A study of Mus musculus with 6 samples.

Results

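The genes described here are 36 genes of the hypoxia response and of glycolysis, followed across whole kidneys of Fz4-/- and Fz4+/+ mouse embryos. The genes were listed by name, with no threshold on these arrays, but with earlier results of these data known. Of the 36, 33 had at least 1 probe set that the platform annotation gave to that gene alone, out of 18194 genes with such a probe set in the whole data set, and the brightest probe set by mean of all arrays stood for each gene. A probe set is a group of short oligonucleotides on the array that read the same transcript. Bnip3l was carried only by probe sets shared with a pseudogene, and no probe set was named for Eno1 or Gpi1. Gapdh was carried only by control probe sets of the array and was not tested, which left 32 tested genes, and all 32 lay above the filter on low signal of 5.89 log2.

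The study measured RNA on 6 Affymetrix MOE430.2 arrays, 3 from Fz4-/- and 3 from Fz4+/+ kidneys, all at embryonic stage E13.5. Fz4 is the product of Fzd4, a receptor of the frizzled family for Wnt ligands and for Norrin. Each of 3 litters gave 1 array of each genotype, and the labels tell no more of how the litters or the allele differed. Nothing states whether an array held kidneys of 1 embryo or of several, so p-values measure the spread between these samples.

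Values are log2 signal as deposited, and differences are on the same log2 scale. Array medians ran from 6.62 to 6.74, and precision is limited by how few arrays there were. On its brightest probe set Fzd4 read 4.37, 3.58 and 6.22 in the Fz4-/- kidneys of litters 1, 2 and 3 and 11.21, 11.12 and 10.31 in the Fz4+/+ kidneys, with no overlap. All 9 measured kidney markers, such as Six2 and Foxd1, lay above the filter. Both arrays of litter 3 stood apart from those of litter 1 across the array, with higher signal on both litter 3 arrays than on both litter 1 arrays for 48.6% of the 27022 tested probe sets and lower signal for 22.1%. In whole kidneys, fewer cells of a type and less RNA per cell cannot be told apart.

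When oxygen is short, prolyl hydroxylases of the Egln family stop marking the alpha subunits of the hypoxia-inducible factor (HIF) for destruction, and HIF then binds short sequences near its target genes. The targets include glucose transporters, nearly every enzyme of glycolysis, the kinase that keeps pyruvate out of mitochondria, signals for vessel growth and enzymes that modify collagen. The embryonic kidney grows in low oxygen while its vessels form, and its nephron progenitors are known to rely on glycolysis.

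The core of the sequence that HIF binds is written ACGTG or GCGTG. Both were searched on both strands in the 250 bases before each start in the RefSeq promoter table (GRCm38.p6), so that CACGT is ACGTG on the opposite strand and CACGTG counts once on each strand. The table held 46 promoters of 31 of the 36 genes. It held none of Bhlhe40, Ndrg1, Slc2a3, Lox or Bnip3l, so their promoters were not searched. ACGTG was present in 20 of these 46 promoters (43.5%), against 16.6% of all 32851 promoters in the table and 21.2% of the 12952 promoters of genes tested on the array. GCGTG was present in 25 (54.3%), against 28.2% and 44.1%. The palindrome CACGTG, which holds ACGTG on both strands, was present in 3 (6.52%), against 6.02% and 8.07%. These are counts of letters with no test, and several of the genes are known HIF targets.

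The following windows are shown because they hold ACGTG at the most upstream start of genes among the 16 with the largest difference between litters 3 and 1. Bhlhe40 and Ndrg1, the genes with the largest differences, are absent because the promoter table did not hold them. Pgk1 is added as a glycolysis gene whose promoter holds the core while its litter difference was 0.05. Each runs 5′ to 3′ on the strand of the gene, and the capitals mark ACGTG or CACGT, or CACGTG where both overlap.
Egln3, chr12:54204064-54204124, minus strand: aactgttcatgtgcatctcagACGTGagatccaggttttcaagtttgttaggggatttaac
P4ha2, chr11:54100811-54100885, plus strand: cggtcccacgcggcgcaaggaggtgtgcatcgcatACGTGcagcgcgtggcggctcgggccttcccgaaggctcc
Bnip3, chr7:138909574-138909649, minus strand: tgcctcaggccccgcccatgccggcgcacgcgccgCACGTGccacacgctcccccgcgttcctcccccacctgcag
Pfkfb3, chr2:11553950-11554024, minus strand: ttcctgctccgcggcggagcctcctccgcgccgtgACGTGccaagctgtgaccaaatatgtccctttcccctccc
P4ha1, chr10:59323245-59323295, plus strand: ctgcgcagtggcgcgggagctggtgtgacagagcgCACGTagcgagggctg
Ldha, chr7:46845624-46845803, plus strand: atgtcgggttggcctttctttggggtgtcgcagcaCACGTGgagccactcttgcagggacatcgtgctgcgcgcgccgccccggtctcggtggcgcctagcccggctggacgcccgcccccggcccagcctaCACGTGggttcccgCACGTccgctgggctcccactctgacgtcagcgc
Pgk1, chrX:106186915-106187008, plus strand: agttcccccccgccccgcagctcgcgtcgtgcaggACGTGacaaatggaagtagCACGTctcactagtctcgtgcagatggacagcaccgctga
Ldha carried the core at 5 positions counted over both strands, between 145 and 34 bases before its start, including 2 copies of CACGTG. Bnip3 carried 1 copy of CACGTG. The motifs did not all go one way with the litter difference. Of 14 tested genes with a promoter in the table and a litter difference of at least 0.3, 7 held ACGTG (50%), and of 14 with a smaller difference 10 did (71.4%). GCGTG was held by 12 (85.7%) of the former and 8 (57.1%) of the latter, and CACGTG by 3 (21.4%) and 0. None of these differences was tested.

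The comparison of litter 3 with litter 1 asks how far the hypoxia and glycolysis genes varied between litters within each genotype. They stood higher in litter 3 in both genotypes, by a median of 0.30 in Fz4-/- and 0.29 in Fz4+/+ kidneys, against 0.12 in each genotype over all tested probe sets. On the brightest probe sets, Bhlhe40, the prolyl hydroxylase gene Egln3 and the stress gene Ndrg1 differed most, while the lower steps of glycolysis differed by less than 0.1. No single gene passed the adjusted threshold, so these are values and not calls. The order depended on the probe set. With the mean of all probe sets of a gene, Egln3 differed by 0.53 and Ndrg1 by 0.46, below P4ha2 at 0.66 and Pdk1 at 0.63. The genes and the comparison of these litters were also chosen with earlier results of these data known.

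Of the 32 genes, 31 (96.9%) had a difference above 0, against 65.6% of all tested probe sets. For 26 of 32 (81.2%) both litter 3 arrays read above both litter 1 arrays, against 48.6%, and for 1 gene, Pgam1, both read below, against 22.1%. A difference of at least 0.3 together with such a gap was seen for 17 of 32 (53.1%), against 29.8%. The median difference with genotype in the fit was 0.32, against 0.13 over all tested probe sets. In limma's fit with genotype as a term, 0 of 32 genes passed a Benjamini-Hochberg adjusted p of 0.05, as did 0% of the tested probe sets. The smallest adjusted p of the 32 genes was 0.0804, for Bhlhe40. That was also the smallest on the array, but it was shared. Stmn2, a neuron marker, had the same adjusted p with a smaller unadjusted limma p, 0.00036 against 0.000959 for Bhlhe40. At an unadjusted p under 0.05, 15 of 32 (46.9%) were higher in litter 3, against 19.5% of tested probe sets, and 0 were lower, against 9.01%. Leaving out 1 array of litter 1 or 3 leaves 1 array in that litter, and the share over all tested probe sets fell as well. The median over the 32 genes stayed between 0.27 and 0.33 in these fits. The count of 15 varied with the array left out, and lost power cannot be told apart from dependence on an array. Without the Fz4-/- array of litter 1 it was 1 (3.12%, against 7.97% of tested probe sets), and without that of litter 3 it was 3 (9.38%, against 13%), both below the background. Without the Fz4+/+ array of litter 1 it was 4 (12.5%, against 11.6%), and without that of litter 3 it was 5 (15.6%, against 5.92%). It was 16 (50%, against 23.7%) without either array of litter 2 and 7 (21.9%, against 13.3%) after quantile normalization. Leaving out an array of litter 2 gives the same fit as litters 1 and 3 alone, so it is no separate check. The count of 26 became 23, against 36.4% of tested probe sets, after quantile normalization, which moved the median over all tested probe sets from 0.13 to 0.04. A variance prior with a trend called 7 of the genes at an adjusted p of 0.05 (21.9%, against 11.9% of tested probe sets), namely Bhlhe40, Ldha, Pdk1, Kdm3a, Ndrg1, Bnip3 and Egln3. Litters 1 and 3 fitted alone called 3, Bhlhe40, Egln3 and P4ha2 (9.38%, against 11.2%). A fit with no genotype term called 1, Bhlhe40 (3.12%, against 5.44%). The shares called by the last 2 fits were below those of all tested probe sets.

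**Figure D1:**
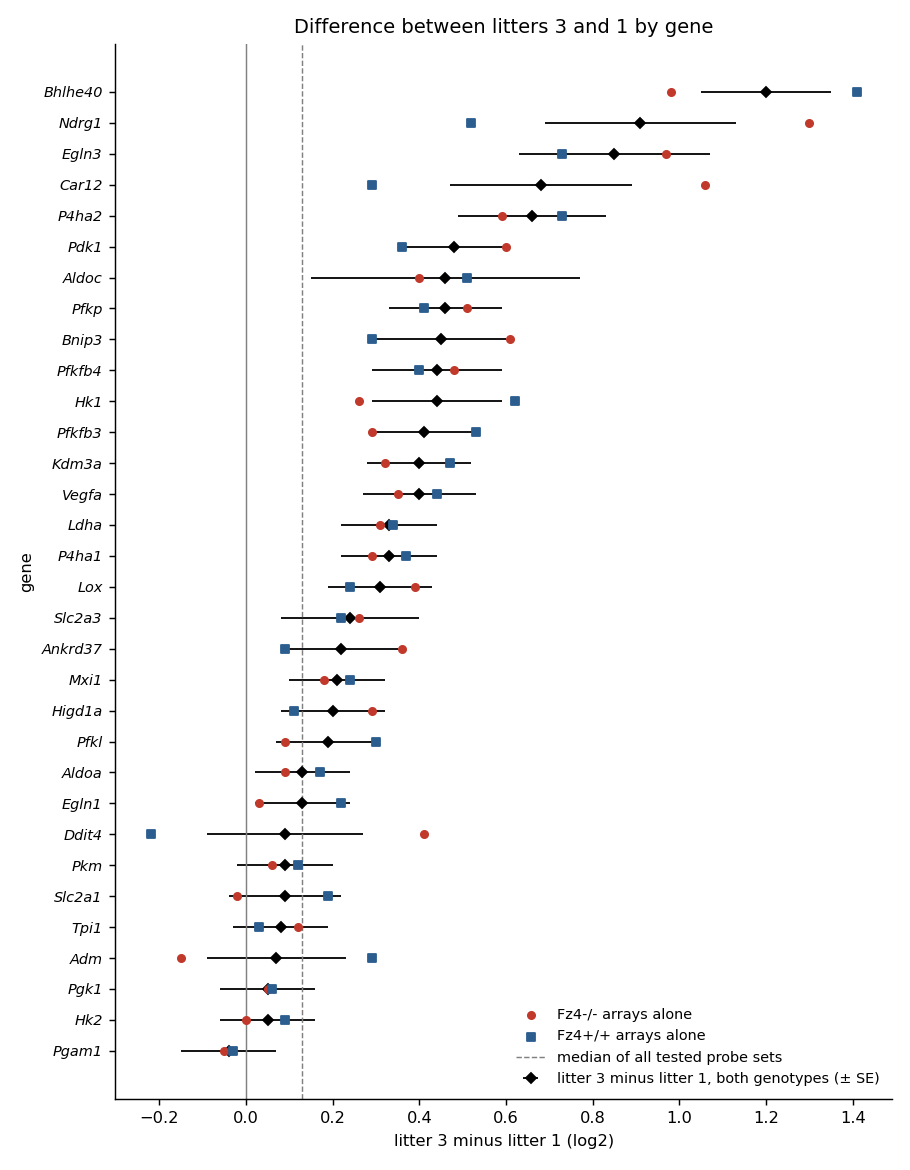
Difference between litter 3 and litter 1 on the log2 scale (horizontal axis) for each of the 32 tested genes (vertical axis): diamonds with bars are the fitted difference ± SE over both genotypes, circles and squares the Fz4-/- and Fz4+/+ arrays alone, and the dashed line the median of all tested probe sets, 0.13. Bhlhe40 lies farthest right at 1.20, and the genotypes lie on opposite sides of 0 for Adm, Slc2a1 and Ddit4.

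Among the oxygen sensors, Egln3, a prolyl hydroxylase that HIF itself induces, read 7.78, 8.19 and 8.74 in the Fz4-/- kidneys of litters 1, 2 and 3 and 7.73, 7.35 and 8.46 in the Fz4+/+ kidneys. Both litter 3 arrays were above the other 4, and the Fz4+/+ array of litter 2 was the lowest. Litter 3 was higher than litter 1 by 0.85 ± 0.22 (SE), a fold of 1.80, with a limma adjusted p of 0.114. Its second probe set differed by 0.20. Egln1, the main prolyl hydroxylase at normal oxygen, differed by 0.13 ± 0.11.

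Of the secreted signals, Vegfa, the growth factor of blood vessels, was higher in litter 3 by 0.40 ± 0.13 (SE; limma adjusted p = 0.144), with both litter 3 arrays above both litter 1 arrays. Adm, which encodes the vessel-relaxing peptide adrenomedullin, differed by 0.07 ± 0.16. Its arrays of litters 1 and 3 overlapped.

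Glucose enters through the transporters Slc2a1 and Slc2a3 and is trapped by the hexokinases Hk1 and Hk2. The 4 genes differed by 0.05 to 0.44. At an unadjusted limma p under 0.05, 1 of 4 was higher in litter 3, against 19.5% of tested probe sets. That gene, Hk1, read 8.81, 8.96 and 9.07 in Fz4-/- and 8.61, 8.75 and 9.23 in Fz4+/+ kidneys of litters 1, 2 and 3. Within each genotype its litter 3 array was the highest, and the difference was 0.44 ± 0.15 (SE; limma adjusted p = 0.153). Slc2a3 differed by 0.24 ± 0.16, Slc2a1, the main transporter of embryonic cells, by 0.09 ± 0.13, and Hk2, the insulin-responsive hexokinase, by 0.05 ± 0.11.

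The upper steps of glycolysis were grouped as phosphofructokinase with its regulators Pfkfb3 and Pfkfb4, aldolase and Tpi1, and without the hexokinases given above. This group had a median litter difference of 0.41 over 7 tested genes, which depends on the grouping. Among the enzymes, hexokinases included, Hk1, Pfkp and Aldoc differed by 0.44 to 0.46, and Hk2, Tpi1, Aldoa and Pfkl by 0.05 to 0.19. Both litter 3 arrays stood above both litter 1 arrays for 6 of 7, against 48.6% of tested probe sets. At an unadjusted limma p under 0.05, 3 of 7 were higher in litter 3, against 19.5% of tested probe sets. Those 3 set the flow through phosphofructokinase, the committed step. Pfkp, the platelet-type phosphofructokinase, read 8.18, 8.12 and 8.69 in Fz4-/- and 8.15, 8.32 and 8.57 in Fz4+/+ kidneys of litters 1, 2 and 3. Its litter 3 arrays were the highest of the 6, and the difference was 0.46 ± 0.13 (SE; limma adjusted p = 0.126).

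Pfkfb3 and Pfkfb4 make fructose 2,6-bisphosphate, the activator of phosphofructokinase. Pfkfb4 read 6.90, 7.16 and 7.39 in Fz4-/- and 6.94, 6.78 and 7.34 in Fz4+/+ kidneys, and Pfkfb3 read 8.51, 8.69 and 8.80 against 8.35, 8.57 and 8.88. For both genes the litter 3 arrays were the top pair of the 6. Pfkfb4 differed between litters 3 and 1 by 0.44 ± 0.15 (SE; limma adjusted p = 0.157) and Pfkfb3 by 0.41 ± 0.12 (adjusted p = 0.132).

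Aldoc, the aldolase of brain, read 6.46, 7.09 and 6.87 in Fz4-/- and 6.41, 6.04 and 6.92 in Fz4+/+ kidneys. The Fz4-/- array of litter 2 was the highest and the Fz4+/+ array of litter 2 the lowest, so the litter difference of 0.46 carried an SE of 0.31 and an adjusted p of 0.377 in limma. Pfkl, the liver-type phosphofructokinase, differed by 0.19 ± 0.12. The widely used aldolase Aldoa differed by 0.13 ± 0.11, and 1 of its dimmer probe sets by -0.23. Tpi1, which interconverts the triose phosphates, differed by 0.08 ± 0.11 with overlapping arrays.

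The lower steps differed least. Pgk1, the first ATP-yielding enzyme of the pathway, differed by 0.05 ± 0.11, Pgam1, the phosphoglycerate mutase, by -0.04 ± 0.11 and Pkm, the pyruvate kinase gene, by 0.09 ± 0.11. None of these 3 had an unadjusted limma p under 0.05, against 28.5% of tested probe sets in either direction. Whether the lower steps differed from the upper ones was not tested. Gapdh, read on its 3′ control probe set, was 13.74, 13.71 and 13.69 in Fz4-/- and 13.65, 13.73 and 13.72 in Fz4+/+ kidneys, and its litters overlapped.

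At the end of the pathway, Ldha, which turns pyruvate to lactate, and Pdk1, the kinase that shuts the pyruvate dehydrogenase gate to mitochondria, both stood higher in litter 3. Pdk1 read 10.92, 11.16 and 11.53 in Fz4-/- and 10.83, 11.08 and 11.19 in Fz4+/+ kidneys of litters 1, 2 and 3. Litter 3 was the highest and litter 1 the lowest within each genotype. The difference was 0.48 ± 0.13 (SE; limma adjusted p = 0.113), and the other Pdk1 probe sets differed by 0.82, 1.03 and 0.20.

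Ldha read 12.56, 12.60 and 12.88 in Fz4-/- and 12.48, 12.47 and 12.82 in Fz4+/+ kidneys. Both litter 3 arrays were above the other 4, by much the same step in each genotype. The difference was 0.33 ± 0.11 (SE; limma adjusted p = 0.148), and over the alternatives tried it lay between 0.30 and 0.35.

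**Figure D2:**
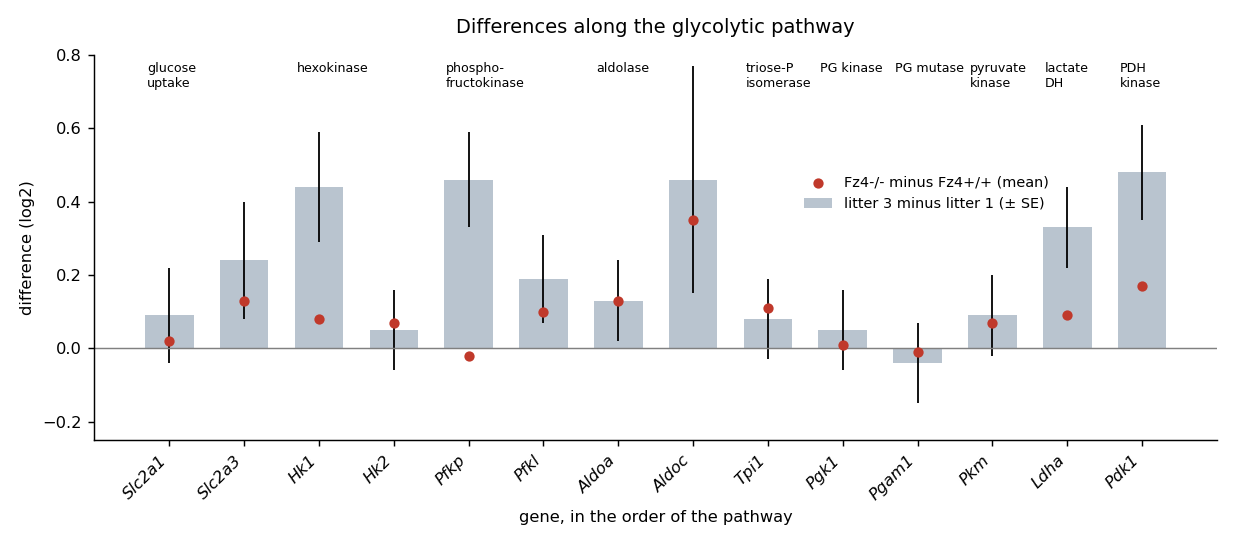
Litter 3 minus litter 1 (bars with ± SE, log2) and Fz4-/- minus Fz4+/+ (circles, log2) for the tested genes in the order of the glycolytic pathway, from glucose uptake to pyruvate dehydrogenase kinase. Bars reach 0.46 at Pfkp, lie between -0.04 and 0.09 from Tpi1 to Pkm, and stand at 0.33 and 0.48 at Ldha and Pdk1.

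Of the mitochondrial members, Bnip3, a receptor for the removal of mitochondria, read 10.16, 9.97 and 10.78 in Fz4-/- and 10.20, 10.11 and 10.49 in Fz4+/+ kidneys. The litter 3 arrays were the highest and those of litter 2 the lowest. Litter 3 exceeded litter 1 by 0.45 ± 0.15 (SE; limma adjusted p = 0.152). Higd1a, a small protein of the respiratory chain, differed by 0.20 ± 0.12, and by 0.49 and 0.45 on its other probe sets.

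Ndrg1, a growth-arrest and stress gene, read 7.45, 8.14 and 8.75 in Fz4-/- and 7.66, 7.90 and 8.18 in Fz4+/+ kidneys of litters 1, 2 and 3. Both litter 3 arrays were above the other 4 and both litter 1 arrays were the lowest. The difference was 0.91 ± 0.22 (SE), a fold of 1.88 with a limma adjusted p of 0.105, and its other tested probe sets differed by 0.56, 0.29 and 0.09. Ddit4, the inhibitor of mTOR signalling also known as REDD1, differed by 0.09 ± 0.18, and its arrays of litters 1 and 3 overlapped.

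Among the regulators of transcription and chromatin, Bhlhe40, a repressor of the clock and of lipid genes, differed most of all 32 genes. It read 7.42, 7.55 and 8.40 in Fz4-/- and 7.09, 7.31 and 8.51 in Fz4+/+ kidneys. The arrays of litter 3 stood well above the other 4 in both genotypes. The difference was 1.20 ± 0.15 (SE), a fold of 2.30, with a limma adjusted p of 0.0804, and over the alternatives it lay between 1.00 and 1.39 with adjusted p from 0.0162 to 0.472.

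Kdm3a, an oxygen-dependent histone demethylase, was higher in litter 3 by 0.40 ± 0.12 (SE; limma adjusted p = 0.13) and had both litter 3 arrays above both of litter 1. Mxi1, an antagonist of Myc, differed by 0.21 ± 0.11, and its other probe set by 0.04. Ankrd37, a short ankyrin repeat protein, differed by 0.22 ± 0.13 with overlapping arrays.

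P4ha1, P4ha2 and Lox hydroxylate or cross-link collagen. P4ha2 read 7.59, 8.0 and 8.18 in Fz4-/- and 7.54, 7.53 and 8.27 in Fz4+/+ kidneys, and its litter difference was 0.66 ± 0.17 (SE; limma adjusted p = 0.116). Its litter 3 arrays were the highest of the 6. P4ha1 differed by 0.33 ± 0.11 on its brightest probe set but by -0.72 on its other one, and the mean of the 2 gave -0.20. Lox differed by 0.31 ± 0.12, and its other tested probe set by 0.02.

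Car12, a carbonic anhydrase of the cell surface that handles acid, read 6.96, 7.43 and 8.03 in Fz4-/- and 7.41, 7.44 and 7.70 in Fz4+/+ kidneys. Litter 3 was the highest in each genotype, with a difference of 1.06 in Fz4-/- and 0.29 in Fz4+/+ kidneys. The fitted difference was 0.68 ± 0.21 (SE; limma adjusted p = 0.142).

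**Figure D3:**
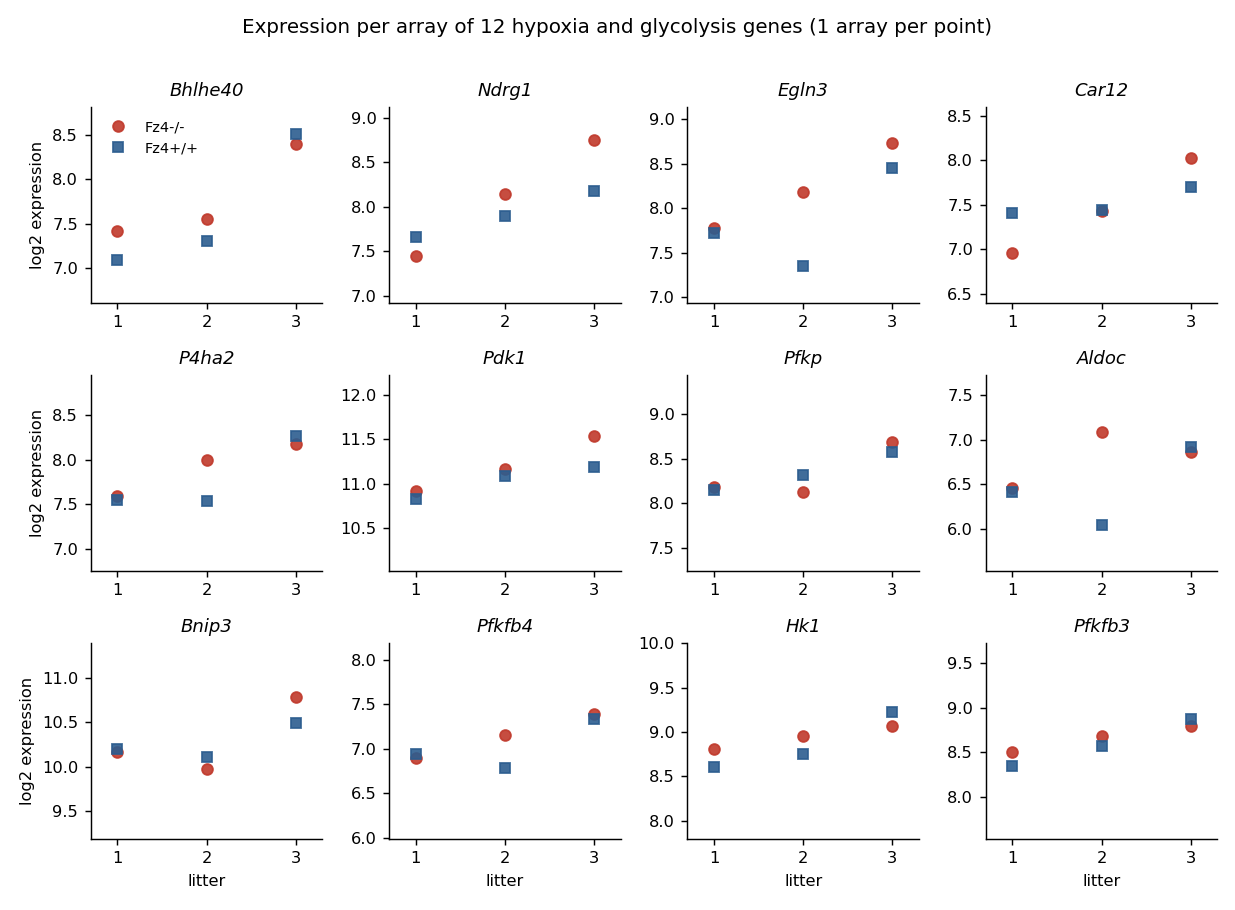
Log2 expression (vertical axis, 1 point per array, every panel spanning the same log2 range) by litter (horizontal axis) of the 12 genes with the largest litter difference, Fz4-/- as circles and Fz4+/+ as squares. In every panel both litter 3 points lie above both litter 1 points, and Aldoc and Egln3 show the widest gap between genotypes in litter 2, 1.04 and 0.84.

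Litter 2 took no fixed place. Its mean lay between those of litters 1 and 3 for 20 of 32 genes, was the lowest for 7 and the highest for 5. Averaged over the 32 genes, each set against its own mean, the Fz4-/- arrays deviated by -0.12, 0.01 and 0.24 in litters 1, 2 and 3 and the Fz4+/+ arrays by -0.16, -0.14 and 0.17. As medians, the deviations were -0.09, 0.02 and 0.20 in Fz4-/- and -0.14, -0.11 and 0.17 in Fz4+/+ kidneys. Over all tested probe sets the medians were -0.04, 0.02 and 0.08, and -0.03, -0.10 and 0.09. The highest array was the Fz4-/- array of litter 3 for 17 genes and the Fz4+/+ array of litter 3 for 10. The lowest was the Fz4+/+ array of litter 2 for 13 genes and that of litter 1 for 11. Such counts were not made over all tested probe sets.

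Other genes of the pathway, listed apart from the 36, varied as follows between litters 3 and 1, with 0 past the adjusted threshold of limma in each list. Among 9 tested HIF subunits and regulators the median difference was 0.08, against 0.13 over all tested probe sets. At an unadjusted limma p under 0.05, 1 was higher and 1 lower, against 19.5% and 9.01% of tested probe sets. Hif1an, the asparagine hydroxylase that silences HIF, was the higher one at 0.64 ± 0.16 (SE), and Cited2, which competes with HIF for its coactivator, the lower one at -0.37 ± 0.12. Hif1a, the oxygen-labile subunit, read 12.09, 12.17 and 11.93 in Fz4-/- and 12.12, 12.41 and 11.94 in Fz4+/+ kidneys, lowest in litter 3 in both genotypes, with a difference of -0.17 ± 0.12. Its partner genes Arnt and Arnt2 differed by -0.19 ± 0.12 and 0.20 ± 0.12. RNA of the HIF subunits need not follow their protein, which was not measured.

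Among 25 tested other hypoxia-responsive genes the median litter difference was 0.22, against 0.13 over all tested probe sets. Both litter 3 arrays were above both litter 1 arrays for 16 and below for 3, against 48.6% and 22.1% of tested probe sets. At an unadjusted limma p under 0.05, 7 were higher and 2 lower, against 19.5% and 9.01% of tested probe sets. The collagen lysyl hydroxylase Plod1 differed by 0.81 ± 0.16 (SE), the glycogen regulator Ppp1r3c by 0.98 ± 0.24 and the secreted glycoprotein Stc1 by 0.49 ± 0.11. The nuclear receptor gene Rora went the other way, at -1.47 ± 0.28. Among 20 tested other genes of glycolysis and pyruvate the median was 0.12. At that unadjusted p 3 were higher and 1 lower, again against 19.5% and 9.01% of tested probe sets. The 3 were Pdk2 at 0.70 ± 0.16, Pgam2 at 0.43 ± 0.14 and Ldhb at 0.32 ± 0.11, and the lower one was the fasting-induced kinase Pdk4 at -1.07 ± 0.36. The 6 genes of the pentose phosphate pathway had a median of 0.08, with Rpia at 0.28 ± 0.11 and Tkt at 0.21 ± 0.12. Of these, 0 had an unadjusted limma p under 0.05, against 28.5% of tested probe sets in either direction.

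Markers of other cells and signs of RNA quality also varied between litters, and their part in the litter difference was not tested. Macrophage markers averaged 7.72, 7.53 and 7.80 in Fz4-/- and 7.63, 7.50 and 8.16 in Fz4+/+ kidneys. Both litter 3 arrays were above both litter 1 arrays for 6 of 10, against 48.6% of tested probe sets. Markers of neurons and neural crest averaged 5.83, 5.75 and 6.25 against 5.93, 6.71 and 7.02, with 3 of 8 measured genes (Th, Dbh and Sox10) below the filter. Kidney markers averaged 9.62, 9.69 and 9.66 against 9.64, 9.78 and 9.92. These 3 lists were higher in litter 3 than in litter 1 in each genotype. The median over all tested probe sets was also higher, by 0.12 in each genotype. In Fz4-/- kidneys the kidney and macrophage lists rose by less than that.

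Erythroid markers averaged 8.16, 7.83 and 8.01 in Fz4-/- and 7.83, 7.60 and 8.88 in Fz4+/+ kidneys, and 3 of 8 lay below the filter. Early nephron markers averaged 9.47, 9.48 and 9.33 against 9.35, 8.98 and 9.03. Liver markers averaged 7.33, 6.01 and 6.30 against 7.38, 6.29 and 7.91. None of the erythroid, early nephron and liver lists was higher in litter 3 in both genotypes. The early nephron list was lower than in litter 1 in both. Both litter 3 arrays were below both litter 1 arrays for 4 of its 8 tested genes, against 22.1% of tested probe sets. They were above for 0, against 48.6%.

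Striated muscle markers averaged 7.62, 6.20 and 7.79 in Fz4-/- and 7.78, 8.48 and 7.49 in Fz4+/+ kidneys. Endothelial markers lay between 8.99 and 9.27, podocyte markers between 8.68 and 9.13 and proliferation markers between 11.70 and 11.78 on all arrays. The excess of 3′ over 5′ signal, larger in degraded RNA, was 0.86, 0.75 and 0.64 for actin in Fz4-/- and 0.77, 0.90 and 0.76 in Fz4+/+ kidneys. For Gapdh it was 0.86, 0.76 and 0.75 against 0.77, 0.90 and 0.90, so it was lower in litter 3 than in litter 1 in Fz4-/- kidneys for both controls.

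The comparison of genotypes asks whether loss of Fz4 went with another level of hypoxia or glycolysis genes. No gene of the 32 passed the test. The median difference, Fz4-/- minus Fz4+/+, was 0.08, against 0.03 over all tested probe sets. P4ha1, Tpi1 and the other 6 genes that were higher in Fz4-/- kidneys in all litters differed by at most 0.39, and Egln3, the largest of them, owed most of this to litter 2.

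In limma's fit, 0 of 32 genes passed an adjusted p of 0.05, as did 0% of tested probe sets, and 0 had an unadjusted p under 0.05, against 0.884%. With litter as a block, 1 gene, P4ha1, had an unadjusted p under 0.05 (3.12%, against 3.11% of tested probe sets) and 0 passed the adjusted threshold. The fit did not call Fzd4 either, whose adjusted p was 0.999988 on both tested probe sets, so the absence of calls says little about size. The differences ran from -0.12 for Vegfa to 0.39 for Egln3, and 25 genes were above 0 and 7 below, against 61.6% of all tested probe sets above 0. For 27 of 32 genes the litter difference was larger in size than the genotype difference, as it was for 80.1% of all tested probe sets.

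Litter by litter, 22, 24 and 18 of the 32 genes were higher in the Fz4-/- array in litters 1, 2 and 3. Of all tested probe sets, 48.5%, 68.2% and 49.9% were higher in these litters. The median differences of the 32 genes were 0.05, 0.11 and 0.03, against -0.01, 0.12 and 0.00 over all tested probe sets. Genes higher in Fz4-/- kidneys in all litters numbered 8 (25%), against 14.2% of tested probe sets, and genes lower in all litters numbered 0, against 7.28%. These 8 were Egln3, P4ha1, Ankrd37, Pdk1, Aldoa, Tpi1, Ldha and Pkm. Every Fz4-/- array was above every Fz4+/+ array for 1 gene, Tpi1 (3.12%, against 2.42%), and below for 0, against 1.21%.

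**Figure D4:**
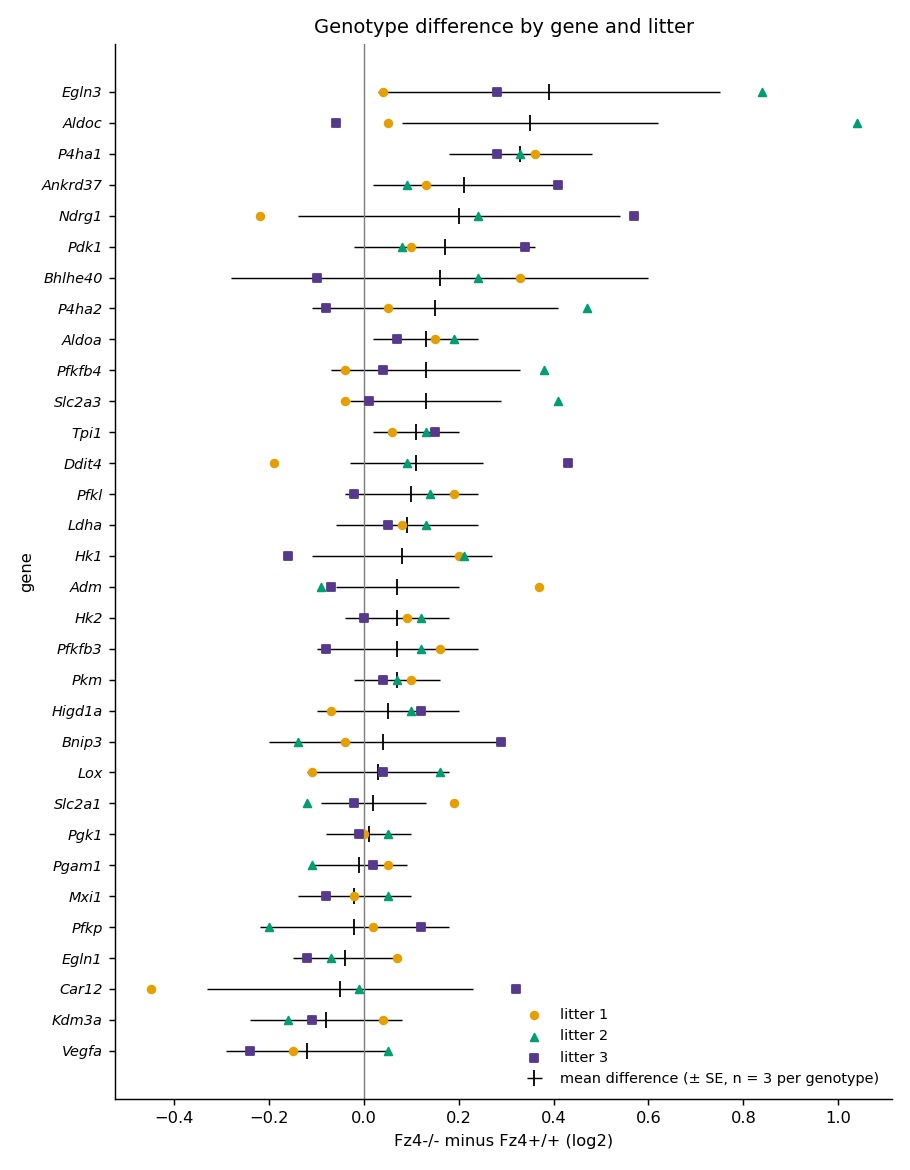
Fz4-/- minus Fz4+/+ on the log2 scale (horizontal axis) for the 32 tested genes (vertical axis): coloured points are the difference within litter 1, 2 or 3, and the tick with its bar is the mean difference ± SE. P4ha1 has its litters close together at 0.36, 0.33 and 0.28, while Egln3 and Aldoc reach 0.84 and 1.04 in litter 2 alone.

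P4ha1 encodes the catalytic subunit of the enzyme that hydroxylates prolines of collagen. It read 9.51, 9.58 and 9.80 in the Fz4-/- kidneys of litters 1, 2 and 3 and 9.15, 9.24 and 9.52 in the Fz4+/+ kidneys. Each Fz4-/- array was above its littermate, by 0.36, 0.33 and 0.28, and the genotypes overlapped only through the Fz4+/+ array of litter 3. The mean difference was 0.33 ± 0.15 (SE), with an exact permutation p of 0.2 and a limma adjusted p of 0.999988. With litter as a block the SE was 0.09, the unadjusted limma p 0.0171 and the adjusted p 0.999986. Its other probe set differed by 0.01.

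Tpi1 read 11.90, 11.96 and 12.02 in Fz4-/- and 11.84, 11.83 and 11.88 in Fz4+/+ kidneys. The genotypes did not overlap, though the nearest arrays were 11.90 and 11.88. The difference was 0.11 ± 0.09 (SE), and the exact permutation p was 0.1, which is as low as 3 against 3 can go. Its other probe sets differed by 0.10 and 0.12.

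Ankrd37 read 9.19, 8.92 and 9.56 in Fz4-/- and 9.06, 8.83 and 9.15 in Fz4+/+ kidneys. The pairs differed by 0.13, 0.09 and 0.41, all in 1 direction, and the genotypes overlapped. Its mean difference was 0.21 ± 0.19 (SE).

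For Egln3, whose values are given above, the pairs differed by 0.04, 0.84 and 0.28, a mean of 0.39 ± 0.36. Its second probe set differed by 0.28. For Aldoc they differed by 0.05, 1.04 and -0.06, a mean of 0.35 ± 0.27, so that litter 2 made nearly all of it. In litter 2 the Fz4+/+ array had the lowest level of 13 of the 32 genes. Its median deviation was -0.11 over the 32 genes and -0.10 over all tested probe sets. It also carried the highest muscle markers, at 8.48 against 6.20 in its Fz4-/- littermate. The part of that muscle gap in the genotype differences was not tested.

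Ndrg1 pairs differed by -0.22, 0.24 and 0.57, a mean of 0.20 ± 0.34 with no shared sign. Pdk1 pairs differed by 0.10, 0.08 and 0.34, a mean of 0.17 ± 0.19. Aldoa differed by 0.13 ± 0.11, Ldha by 0.09 ± 0.15 and Pkm by 0.07 ± 0.09, each with all litters above 0 and overlapping genotypes. Vegfa, the lowest, differed by -0.12 ± 0.17, and its dimmer probe set by 0.34. Without the Fz4-/- array of litter 3 the median over the 32 genes was 0.011, and without the Fz4+/+ array of litter 3 it was 0.137.

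Among the other genes of the pathway 0 passed limma's adjusted threshold between genotypes, with or without litter as a block. At an unadjusted limma p under 0.05 there were 0 without the block and 1 with it, Slc16a3, at 0.0478. The shares over all tested probe sets were 0.884% and 3.11%. The medians were 0.02 over HIF subunits and regulators, 0.06 over the other hypoxia-responsive genes, 0.04 over the other glycolysis and pyruvate genes and 0.03 over the pentose phosphate genes. Those with the smallest p in their lists were Hif3a, an alpha subunit with inhibitory forms, at 0.31 ± 0.19 (SE), the lactate exporter Slc16a3 at 0.27 ± 0.15, the neuronal enolase Eno2 at 0.27 ± 0.13 and the transaldolase Taldo1 at 0.08 ± 0.10. Hif1a differed by -0.09 ± 0.15 and Epas1, which encodes the alpha subunit of vessels, by -0.12 ± 0.10.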

How the data were processed

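RNA of whole kidneys was labelled with biotin and hybridised to 6 arrays, per the labels. The deposited values are log2 expression per probe set, which the authors made with RMA, per the submitters' processing notes (no version given). RMA evens out the distributions of the arrays, which hides a change in total RNA, and it shrinks differences at low signal. They run from 2.22 to 14.79 over 45101 probe sets and were used as deposited. By the annotation, 34958 probe sets had 1 gene, 932 several and 9211 none, and 34754 Entrez numbers matched RefSeq (GRCm38.p6), with 0 symbols changed. After 64 controls were left out, the 27022 probe sets whose mean reached the 40th percentile (5.89 log2) entered the tests.

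limma 3.58.1 in R 4.3.3 (lmFit, eBayes, two-sided, Benjamini-Hochberg over all tested probe sets, threshold 0.05) compared genotypes with genotype as the sole term, and litter 3 with litter 1 with genotype as a term and all 6 arrays in the fit. Single values used the exact permutation test over arrays, whose smallest p is 0.1 for 3 against 3 and 0.333 for 2 against 2. The fits were tested on simulated data. Values in every sample were given for the 12 genes with the largest litter difference, the 6 with the largest genotype difference and the genes with 1 sign in all litters and no overlap. Up to 4 genes per pathway list were named by smallest unadjusted p. Pathway lists held HIF subunits and regulators, other hypoxia-responsive, other glycolysis and pyruvate, and pentose phosphate genes. The cell marker lists were averaged per array. The members, lists and the litter comparison were chosen with earlier results of these data known.

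Samples with the same number come from the same litter, per the labels, and were therefore taken as pairs. Their deviations from the mean of the genotype correlated by 0.577, 0.178 and 0.809 within litters 1, 2 and 3, though the Fz4-/- array of litter 1 correlated best with the Fz4+/+ array of litter 2, at 0.609. Alternatives covered the litter block, terms, samples, filter, normalization, variance prior, probe set choice and each array left out.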

Additional observations from a re-analysis of the deposited data

Results flagged for a closer look

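For 3 of the 32 tested genes litter 3 stood above litter 1 in one genotype and below it in the other. Adm differed by -0.15 in Fz4-/- and 0.29 in Fz4+/+ kidneys, Slc2a1 by -0.02 and 0.19, and Ddit4 by 0.41 and -0.22. Each value compares 1 array with 1 array, so the difference between the genotypes was not tested. For Slc2a1 its other probe sets differed between the litters by 0.21 and 0.13 over both genotypes, and for Adm the other probe set by 0.07.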

How the results depend on the processing

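Alternatives for the count at an unadjusted p under 0.05, and quantile normalization for the count of non-overlapping genes, were chosen after seeing the data. Between litters 3 and 1, 0 probe sets were called, but 1469 without a genotype term, 3032 with litters 1 and 3 only, 3219 with a trend in the variance prior, and 0 to 3032 with each array left out. Called members numbered 0, but 1 without a genotype term (3.12%, against 5.44% of probe sets), 3 with litters 1 and 3 only (9.38%, against 11.2%), 7 with the trend (21.9%, against 11.9%), 1 with the mean of probe sets (3.33%, against 1.08%) and 0 to 3 with each array left out. The median litter difference, 0.32, was 0.217 after quantile normalization, 0.216 with the mean of probe sets and 0.275 to 0.327 with each array left out. Members at an unadjusted p under 0.05, 15, numbered 7 after quantile normalization (21.9%, against 13.3%) and 1 to 16 with each array left out (3.12% to 50%, against 5.92% to 23.7%), and their share was below that of all probe sets without the Fz4-/- array of litter 1 or of litter 3. Of probe sets at that p, 68.4% were higher in litter 3, and 53.1% after quantile normalization, 53.3% with no filter and 80.7% with the mean of probe sets. Between genotypes 0 probe sets were called under every alternative run, and the replicate block by litter kept the median difference at 0.078, while leaving out each array gave 0.011 to 0.144. At an unadjusted p under 0.05, 154 probe sets were higher and 85 lower in Fz4-/-, and 606 and 235 with the block. A turned sign is named here only where the difference exceeded its SE in the main fit or in the alternative. Between genotypes this held for Egln1 (0.14 with the mean of probe sets) and Bnip3 (-0.20 without the Fz4-/- array of litter 3, and -0.20 to 0.20 with each array left out). Between litters it held for P4ha1 (-0.20 with the mean of probe sets). The cause was not tested. In 46 of 732 single-gene values the sign turned by any amount, and 26 genes between litters and 14 between genotypes kept their sign under every alternative run. Several alternatives return the main difference and could not turn a sign, and their values are among the 732. They were the litter block, no genotype term, no filter, the trend and litters 1 and 3 only. Between litters, leaving out an array of litter 2 also returns the main difference. It is the same fit as litters 1 and 3 only, so its counts are no separate result. With 2 arrays a litter and 3 a genotype, the arrays are too few to give narrow errors, and signal near background limits the dimmest probe sets.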
